A study of Mus musculus with 3 samples.

Results

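The cytosolic ribosomal protein genes were followed through 3 transcriptomes of mouse mammary cells. They were chosen by gene name, as Rpl or Rps with a number and at most 1 letter (a, x, y or l) and 1 further digit, together with Rpsa, Rplp0, Rplp1 and Rplp2, leaving out names that carry the pseudogene mark -ps. Of 22378 gene models listed, 83 carried such a name. Of these, 82 had a value in every library, and Rpl13 had none. All mice were on the FVB strain background. LCC, the lung-colonizing cells, were mammary cells recovered by flow sorting from the lungs of recipient mice 1 day after intravenous injection. They came from GFP mice, or from FVB mice and stained with the dye DDAO, and were pooled over 15 experiments, 42 lungs and 455880 cells. The design text describes an experiment as the dissociated glands of 8 FVB.GFP females given to 4 FVB recipients in 2 doses of 2500000 cells, and does not say in which experiments DDAO-stained cells were used. E-Int29-Hi were dissociated mammary cells gated on intermediate EpCAM with high CD29, a fraction that holds lung-colonizing cells, and MG was undissociated mammary gland. Each of these last pools combined 3 samples. The age of the mice was not given in the sources used here. Each group was 1 pooled library, so no difference has a replicate check and no test was made.

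A ribosome is built from a small subunit, which reads the messenger RNA, and a large subunit, which joins the amino acids. Each subunit is a scaffold of ribosomal RNA clothed by proteins that are mostly present as a single copy, and their genes are transcribed in all cells. Many of their messenger RNAs begin with a terminal oligopyrimidine tract, a run of C and T bases at the start of the transcript through which mTORC1 signalling regulates their translation. Mammalian genomes also hold many processed copies of these genes, which makes sequencing reads hard to assign to one of them.

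The values are FPKM, fragments per unit of transcript length and of sequencing depth, so that genes of different length can be set beside each other within a library. No read counts were used and the depth of each library is unknown. FPKM over all gene models with an accepted value summed to 375578 for LCC, 326203 for E-Int29-Hi and 288417 for MG. Changes are log2 ratios of FPKM + 1, which understate the change of genes at low levels, and they cover genes that reach 1 FPKM in either of the libraries compared. All 3 libraries are mixtures or sorts, and fewer cells of a type and less RNA per cell cannot be told apart in them. The 9 basal mammary markers summed to 680.3 FPKM in LCC, 7666 FPKM in E-Int29-Hi and 553 FPKM in MG. Of these 9, 6 stood lower in LCC than in MG (median change -1.05), and the 3 that stood higher were Krt5, Krt14 and Krt17. The 9 luminal markers summed to 4440.3 FPKM in LCC, 367 FPKM in E-Int29-Hi and 2428 FPKM in MG. The LCC sum was carried by Krt18, Krt8 and Cldn4, and the other 6 stood lower in LCC than in MG (median change over the 9 -0.997), with Elf5, Esr1, Pgr and Prlr at least 4-fold lower. In LCC, 14 lung epithelium markers summed to 679 FPKM, against 17.8 in E-Int29-Hi and 23.8 in MG. Scgb1a1 carried most of the LCC sum, at 572 FPKM. By any amount, 13 of the 14 stood higher in LCC than in E-Int29-Hi, and 12 stood higher in LCC than in MG.

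Ribosomal protein genes stood highest in the lung-recovered cells and lowest in whole gland. The 82 genes together held 4.68% of the FPKM sum in LCC, against 3.73% for E-Int29-Hi and 2.65% for MG. The median gene was at 96.6 FPKM in LCC, 67.5 FPKM in E-Int29-Hi and 45.0 FPKM in MG. A level of 100 FPKM was reached by 41 of the 82 genes in LCC, by 31 in E-Int29-Hi and by 24 in MG. Levels were unequal among the genes, and the 10 highest genes held 48.8% of the summed level in LCC, against 51.1% for E-Int29-Hi and 49.6% for MG. Genes encoded by mitochondrial DNA, which serve another ribosome and the respiratory chain, held 5.95% of the FPKM sum in LCC, against 4.86% for E-Int29-Hi and 5.83% for MG.

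**Figure D1:**
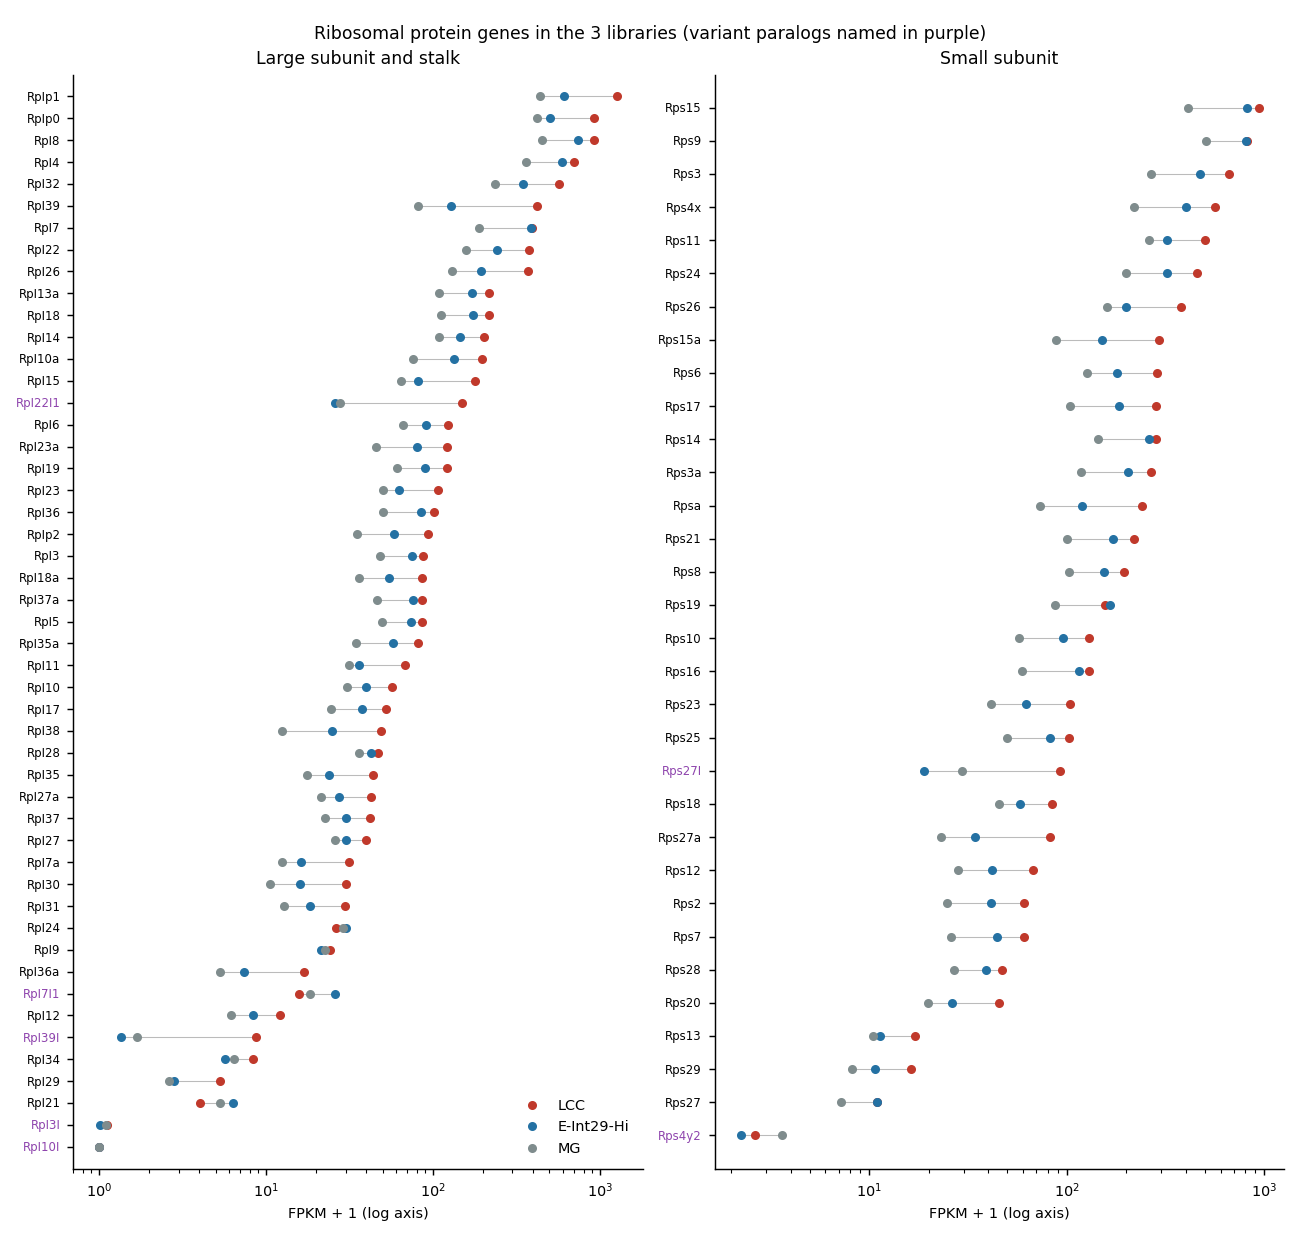
FPKM + 1 on a log axis for 81 of the 82 ribosomal protein genes, with 1 row per gene and 1 point each for LCC (red), E-Int29-Hi (blue) and MG (grey). Over all 82 the median gene stands at 96.6 FPKM in LCC, 67.5 FPKM in E-Int29-Hi and 45.0 FPKM in MG, and single genes span from 0 to 1267 FPKM.

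The highest level belonged to the stalk gene Rplp1. Rplp1 stood at 1267 FPKM in LCC, 613 FPKM in E-Int29-Hi and 436 FPKM in MG. Other genes at high levels in LCC were Rps15 (932 FPKM in LCC, 811 FPKM in E-Int29-Hi and 409 FPKM in MG), Rplp0 (928 FPKM in LCC, 503 FPKM in E-Int29-Hi and 419 FPKM in MG) and Rpl8 (923 FPKM in LCC, 743 FPKM in E-Int29-Hi and 448 FPKM in MG). They were followed by Rps9, Rpl4 and Rps3, at 819, 701 and 660.4 FPKM in LCC. In MG, Rps9 ranked first at 503 FPKM. The lowest levels in LCC were those of Rpl10l, listed at 0 in every library, Rpl3l, Rps4y2, Rpl21, Rpl29, Rpl34, Rpl39l and Rps27. Rpl3l stood at 0.11 FPKM in LCC, 0.0159 FPKM in E-Int29-Hi and 0.0947 FPKM in MG. Rps4y2 stood at 1.64 FPKM in LCC, 1.23 FPKM in E-Int29-Hi and 2.63 FPKM in MG, and the GENCODE M21 annotation names its model Rps4l, a transcribed processed pseudogene. The order of the genes was much alike in the libraries. Over the 74 canonical genes, meaning those left after 7 variant paralogs and 1 doubtful model, log2 levels correlated across genes with r = 0.98 between LCC and E-Int29-Hi, 0.98 between LCC and MG and 0.99 between E-Int29-Hi and MG. The points of these correlations share gene length and near-identical copies, and genes are not independent replicates. The doubtful model is listed as Rpl24, but carries an identifier that GENCODE M21 gives to Zbtb11, and it stood at 25.2 FPKM in LCC, 29.2 FPKM in E-Int29-Hi and 28.0 FPKM in MG.

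Near-identical gene models and models named as pseudogenes took a large part of the signal. A search of coding sequences against the GENCODE M21 transcripts of the listed models used 95% identity over 80% of the length. It found such a model for 43 of 81 genes searched. These 81 include Rpl36al, which falls outside the rule, but not Rps4y2 or the model listed as Rpl24. With models that carry a gene's name and the mark -ps, 48 of the 82 genes had 122 copies. The other 34 had none, Rps4y2 and the model listed as Rpl24 among them. Copies added by name alone, such as Rplp2-ps1, Rps19-ps1 and Rps19-ps2, were not found near-identical by the search. It could not cover 1574 models without such a transcript, so some of these copies may not have been compared. The copies summed to 23180.5 FPKM in LCC, 15439 FPKM in E-Int29-Hi and 9756 FPKM in MG, more than the 17590 FPKM in LCC, 12176 FPKM in E-Int29-Hi and 7652 FPKM in MG of the genes themselves. Genes and copies together held 10.9% of the FPKM sum in LCC, against 8.47% for E-Int29-Hi and 6.04% for MG. In LCC, 35 of the 48 genes lay below the sum of their copies, and 19 lay more than 4-fold below it. The widest gaps were in genes that looked scarce by their own model. Rps27 stood at 9.96 FPKM in LCC, 9.98 FPKM in E-Int29-Hi and 6.19 FPKM in MG, while the model Gm9846 (Rps27rt in GENCODE M21), whose coding sequence is identical to it, stood at 1212 FPKM in LCC, 1159 FPKM in E-Int29-Hi and 520.1 FPKM in MG. Rpl34 stood at 7.41 FPKM in LCC, 4.65 FPKM in E-Int29-Hi and 5.46 FPKM in MG, against a sum over its copies of 808 FPKM in LCC, 512 FPKM in E-Int29-Hi and 360.0 FPKM in MG. How the authors' software divided reads among such models was not given in the sources used here, so the own level of these genes is uncertain.

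Rpsa, a small-subunit protein also known as a laminin receptor, shows how little separates a gene from its copy. It stood at 240.5 FPKM in LCC, 118 FPKM in E-Int29-Hi and 72.2 FPKM in MG, and its copy Rpsa-ps10 stood at 922 FPKM in LCC, 476 FPKM in E-Int29-Hi and 293 FPKM in MG. The pair differs at 6 of 885 coding bases. The stretch from coding base 151 to 240, read from GENCODE M21 transcripts, is printed here with the 2 bases that differ within it in capitals.
Rpsa: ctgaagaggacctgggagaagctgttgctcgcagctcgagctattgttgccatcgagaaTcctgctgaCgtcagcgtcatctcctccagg
Rpsa-ps10: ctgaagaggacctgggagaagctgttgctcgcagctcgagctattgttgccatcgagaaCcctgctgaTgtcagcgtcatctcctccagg
Other copies at high levels were Rplp2-ps1, at 1439.8 FPKM in LCC, 1086 FPKM in E-Int29-Hi and 631 FPKM in MG, Rps27a-ps2, at 744 FPKM in LCC, 383 FPKM in E-Int29-Hi and 221 FPKM in MG, and Rpl10-ps3, at 614 FPKM in LCC, 409.5 FPKM in E-Int29-Hi and 311 FPKM in MG. Each of these lay above its parent gene in every library. In each of these 4 cases the copies stood highest in LCC and lowest in MG, the same order as the parent.

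**Figure D2:**
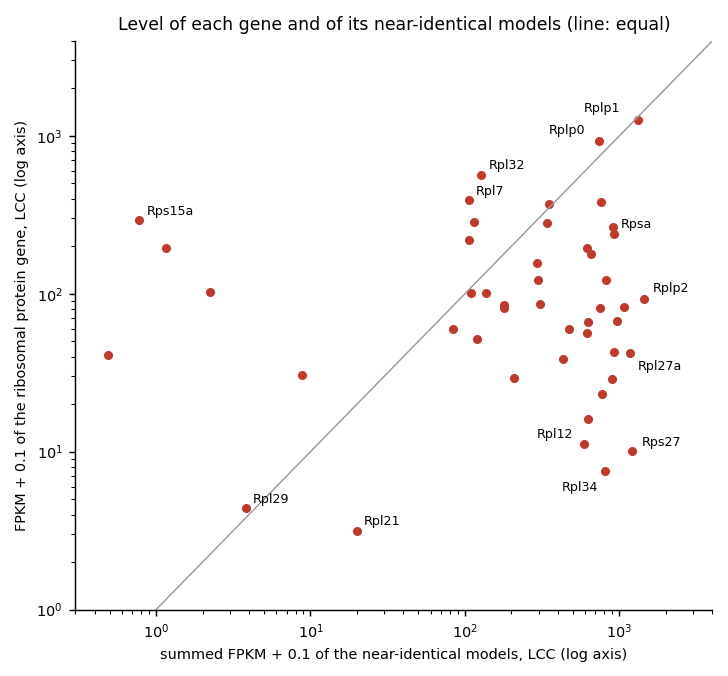
FPKM + 0.1 in LCC of ribosomal protein genes (vertical) against the summed FPKM + 0.1 of their copies (horizontal), on log axes. Copies are models near-identical in sequence or named as the gene's pseudogene. Each of the 48 genes with copies has 1 point, except Rpl28, whose copy was at 0 FPKM and lies off the axis. Points right of the line are the 35 genes below their copies, and Rps27, at 9.96 FPKM against 1212 FPKM, is among the farthest from it.

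Against whole gland, most of the genes stood higher in LCC. LCC stood at least 2-fold higher for 50 of 80 genes (62.5%), against 10.9% of the 12443 genes tested. None stood at least 2-fold lower in LCC, against 12.8% of all genes. At the 4-fold level 3 genes were higher in LCC, Rpl22l1, Rpl39 and Rpl39l, and 1.33% of all genes were, while none was 4-fold lower, against 2.63%. The median change of the ribosomal protein genes was 1.13 on the log2 scale, beside 0.01 over all genes, and their changes spread less (SD 0.51 across genes, against 0.95). By any amount 76 of 80 stood higher in LCC, against 50.3% of all genes. Rescaling every library to the same sum without mitochondrially encoded, small RNA and unnamed models (TPM) left 18 of 80 genes at least 2-fold higher, against 6.19% of all genes, with a median of 0.77 beside -0.42 over all genes.

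Between LCC and E-Int29-Hi the shift was smaller, and it was no more frequent at 2-fold than in the transcriptome at large. LCC stood at least 2-fold higher for 9 of 80 genes (11.2%), against 21.2% of 12147 genes tested, and none stood at least 2-fold lower, against 14.1%. By any amount, 75 of 80 stood higher in LCC, against 60.7% of all genes. The median change was 0.53, beside 0.26 over all genes. Dividing each library by its median ratio moved the median of all genes to 0.01 and that of the ribosomal protein genes to 0.26, and 62 of 80 then stood higher in LCC, against 50.3% of all genes. At the 4-fold level 3 genes stood higher in LCC, against 4.64% of all genes, and none lower, against 4.35%. The 9 genes were Rpl22l1, Rpl39l, Rps27l, Rpl39, Rps27a, Rpl36a, Rpl15, Rplp1 and Rpsa. With the median ratio 4 of the 80 genes kept a 2-fold difference, against 15% of all genes, namely Rpl22l1, Rpl39l, Rps27l and Rpl39.

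Between E-Int29-Hi and MG the change was even across genes and seldom reached 2-fold. E-Int29-Hi stood at least 2-fold higher for 1 of 79 genes, Rpl7, against 8.99% of 12430 genes tested, and none stood at least 2-fold lower, against 15.5%. By any amount, 74 of 79 stood higher in E-Int29-Hi, against 38.1% of all genes. With median ratio scaling 11 of 79 stood at least 2-fold higher, against 11.4% of all genes. None stood 4-fold higher, against 2.6%, or 4-fold lower, against 3.97%. The median change was 0.58, beside -0.23 over all genes. These medians lay 0.81 apart, against 0.27 for LCC over E-Int29-Hi and 1.13 for LCC over MG. With median ratio scaling the median change was 0.77, beside -0.06 over all genes. The order LCC above E-Int29-Hi above MG held for 69 of 80 genes, against 12.5% of 12772 genes tested. A lead of at least 2-fold of LCC over both other libraries was found for the 9 genes named above, against 7.2% of all genes. MG was highest for 1 gene, Rps4y2, against 33.2% of all genes. The 3 comparisons share libraries, so their values are not independent of each other.

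**Figure D3:**
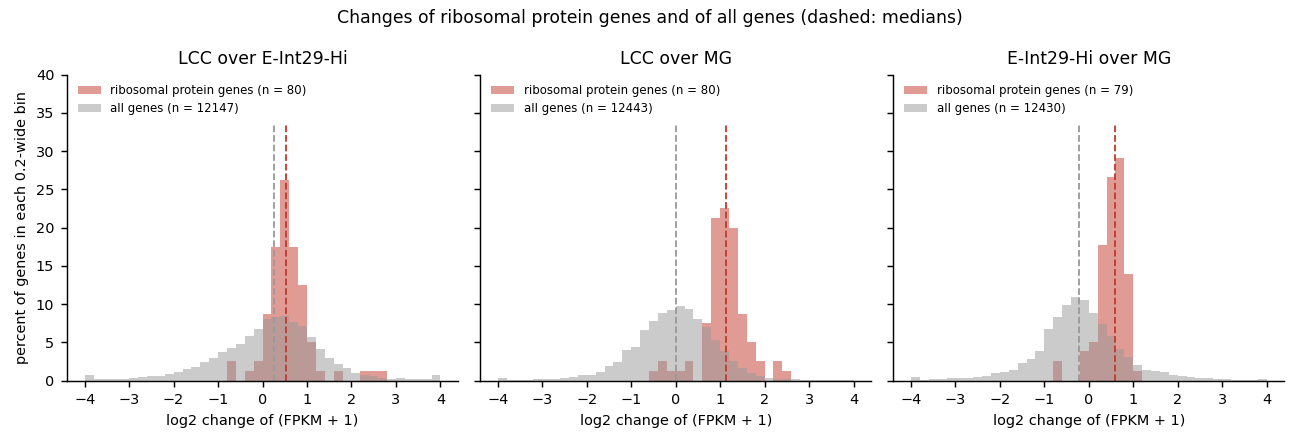
Distribution of log2 changes of FPKM + 1 for the ribosomal protein genes (red) and for all genes tested (grey) in the 3 comparisons, as the percent of genes in bins 0.2 wide, with changes beyond 4 in size drawn at 4 and dashed lines at the medians. The red median stands at 0.53 for LCC over E-Int29-Hi, 1.13 for LCC over MG and 0.58 for E-Int29-Hi over MG, against grey medians of 0.26, 0.01 and -0.23.

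Adding each gene's copies to its own level removed the remaining exceptions among the 74 canonical genes. By their own models, LCC lay below E-Int29-Hi for 3 of them (Rpl21, Rps19 and Rps27), LCC lay below MG for Rpl21, and E-Int29-Hi lay below MG for Rpl34 and Rpl9. Rpl21 stood at 3.05 FPKM in LCC, 5.31 FPKM in E-Int29-Hi and 4.29 FPKM in MG, and with its copies at 22.8 FPKM in LCC, 15.7 FPKM in E-Int29-Hi and 13.2 FPKM in MG. Rps19, a small-subunit protein that is mutated in Diamond-Blackfan anaemia in humans, stood at 156 FPKM in LCC, 165 FPKM in E-Int29-Hi and 86.4 FPKM in MG, and with its copies at 447 FPKM in LCC, 392.3 FPKM in E-Int29-Hi and 212 FPKM in MG. The copies of Rps19 were added by name alone. With copies, all 74 stood higher in LCC than in E-Int29-Hi, higher in LCC than in MG, and E-Int29-Hi stood above MG. That was so for the values as deposited. With median ratio scaling 60 of 74 stood higher in LCC than in E-Int29-Hi, and in TPM 67 did. Under either scaling all 74 stood higher in LCC than in MG, and in TPM E-Int29-Hi stood above MG for 73. The 26 canonical genes without any copy gave medians of 0.48 for LCC over E-Int29-Hi, 1.16 for LCC over MG and 0.67 for E-Int29-Hi over MG, and as deposited all 26 stood higher in the first library of each pair.

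The stalk is the flexible arm of the large subunit that recruits elongation factors, and Rplp0 is its base while Rplp1 and Rplp2 are its mobile parts. Rplp0 stood at 928 FPKM in LCC, 503 FPKM in E-Int29-Hi and 419 FPKM in MG, with changes of 0.88 for LCC over E-Int29-Hi and 1.14 for LCC over MG. Rplp1 gave 1.05 and 1.54 for the same comparisons. Rplp2 stood at 92.7 FPKM in LCC, 57.6 FPKM in E-Int29-Hi and 34.1 FPKM in MG, and gave 0.68 and 1.42. All 3 genes stood in the order LCC, E-Int29-Hi, MG. All 3 also have copies at a level near or above their own, and with these Rplp1 stood at 2577 FPKM in LCC, 1244 FPKM in E-Int29-Hi and 904 FPKM in MG, Rplp0 at 1664 FPKM in LCC, 881 FPKM in E-Int29-Hi and 727 FPKM in MG and Rplp2 at 1532 FPKM in LCC, 1144 FPKM in E-Int29-Hi and 665 FPKM in MG.

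The 41 large-subunit models outside the stalk and the variant paralogs, the one listed as Rpl24 included, had a median level of 84.6 FPKM in LCC, 56.5 FPKM in E-Int29-Hi and 35.4 FPKM in MG. Their median change was 0.52 for LCC over E-Int29-Hi, 1.02 for LCC over MG and 0.57 for E-Int29-Hi over MG. Rpl39, a very short protein that lines the tunnel through which the new chain leaves, stood farthest apart among them. It had 423 FPKM in LCC, 127 FPKM in E-Int29-Hi and 80.1 FPKM in MG, a change of 1.72 against E-Int29-Hi and 2.39 against MG. No copy of Rpl39 was found in the files. Rpl38, whose loss in mice alters the patterning of the skeleton, stood at 47.6 FPKM in LCC, 24.1 FPKM in E-Int29-Hi and 11.5 FPKM in MG. The change of Rpl38 was 1.95 for LCC over MG, and for E-Int29-Hi over MG it lay just under the 2-fold limit. Rpl15 stood at 177 FPKM in LCC, 81.0 FPKM in E-Int29-Hi and 63.4 FPKM in MG and Rpl36a at 15.8 FPKM in LCC, 6.39 FPKM in E-Int29-Hi and 4.34 FPKM in MG, both at least 2-fold higher in LCC than in either other library. Rpl7, by contrast, was level between LCC and E-Int29-Hi as deposited, at 391 FPKM in LCC, 389 FPKM in E-Int29-Hi and 189 FPKM in MG, and with median ratio scaling its change was -0.27. Rpl5 and Rpl11, which form a particle with a small ribosomal RNA and bind Mdm2 when ribosome assembly is disturbed, stood at 84.6 FPKM in LCC, 73.2 FPKM in E-Int29-Hi and 48.9 FPKM in MG for Rpl5 and 66.7 FPKM in LCC, 35.0 FPKM in E-Int29-Hi and 30.3 FPKM in MG for Rpl11. With its copies Rpl11 stood at 1033 FPKM in LCC, 549 FPKM in E-Int29-Hi and 490.5 FPKM in MG, while Rpl5 has no copy in the files. Rpl9 differed little between the libraries by its own model, at 23.1 FPKM in LCC, 20.5 FPKM in E-Int29-Hi and 21.7 FPKM in MG, and with its copies stood at 790.5 FPKM in LCC, 647 FPKM in E-Int29-Hi and 437 FPKM in MG.

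By their own models, with copies not counted for either subunit, the 31 canonical small-subunit genes were at higher levels. Their median level was 193.5 FPKM in LCC, 148.7 FPKM in E-Int29-Hi and 86.4 FPKM in MG. Their median change was 0.49 for LCC over E-Int29-Hi, 1.19 for LCC over MG and 0.70 for E-Int29-Hi over MG. All 31 stood higher in LCC than in MG. Rps27a, made as a fusion with ubiquitin, stood at 81.1 FPKM in LCC, 33.4 FPKM in E-Int29-Hi and 22.1 FPKM in MG, a change of 1.25 against E-Int29-Hi and 1.83 against MG. Rpsa gave 1.02 and 1.72 for the same comparisons. With copies added, Rps27a and Rpsa came just under 2-fold for LCC over E-Int29-Hi, at 0.98 and 0.97. Rps15a, with almost no signal in its copies, stood at 293 FPKM in LCC, 149 FPKM in E-Int29-Hi and 87.4 FPKM in MG, and gave 0.97 and 1.73. Rps6, the substrate of S6 kinase downstream of mTORC1, stood at 283 FPKM in LCC, 178 FPKM in E-Int29-Hi and 125 FPKM in MG, and gave 0.67 and 1.17. Rps9 was nearly level between LCC and E-Int29-Hi, and gave 0.02 against E-Int29-Hi and 0.70 against MG.

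The variant paralogs, relatives of canonical genes that encode alternative versions of the same protein, included the widest differences between LCC and E-Int29-Hi. Of 7 among the genes chosen by name, 5 passed the filter on low values for LCC over E-Int29-Hi. Of these, 3 stood at least 4-fold higher in LCC and were the only ribosomal protein genes to do so. They make 3.75% of the 80 genes tested, against 4.64% of all genes. Rpl22l1, the relative of the RNA-binding protein Rpl22, stood at 149 FPKM in LCC, 24.9 FPKM in E-Int29-Hi and 27.0 FPKM in MG, a change of 2.53 against E-Int29-Hi and 2.42 against MG. Rpl22 itself stood at 376 FPKM in LCC, 242 FPKM in E-Int29-Hi and 156 FPKM in MG, and gave 0.64 and 1.26. Rps27l, known as a target of p53, stood at 91.7 FPKM in LCC, 17.9 FPKM in E-Int29-Hi and 28.5 FPKM in MG, and gave 2.29 and 1.65. Rps27l lay above the own model of Rps27 in every library and below the sum of Rps27 and its copy. Rpl39l, best known from the male germ line in mice, stood at 7.77 FPKM in LCC, 0.358 FPKM in E-Int29-Hi and 0.685 FPKM in MG, and gave 2.69 and 2.38. In E-Int29-Hi and MG it was under 1 FPKM, so it passed the filter on low values through LCC alone. Rpl39 was more than 4-fold above it in each library. Markers of testis germ cells were near 0, with 10 of 11 listed at 0 in LCC, 8 of 11 in E-Int29-Hi and 2 of 11 in MG, and sums of 0.739 FPKM in LCC, 0.980 FPKM in E-Int29-Hi and 2.38 FPKM in MG. The difference of Rpl22l1, Rps27l, Rpl39l and Rpl39 between LCC and E-Int29-Hi stayed at 2-fold or more with every pseudocount, filter and scaling tried.

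These 3 paralogs are distinct enough in sequence from their partners that none was found as a copy in the search. The first 120 coding bases of Rps27l and Rps27 differ at 28 positions, and the whole coding sequences at 60 of 252. The coding sequences of Rpl39l and Rpl39, shown whole, differ at 23 of 153. Capitals mark the differing bases in each pair.
Rps27l: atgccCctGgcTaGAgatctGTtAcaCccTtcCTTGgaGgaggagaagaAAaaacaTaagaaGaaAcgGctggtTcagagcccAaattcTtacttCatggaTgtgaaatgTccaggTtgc
Rps27: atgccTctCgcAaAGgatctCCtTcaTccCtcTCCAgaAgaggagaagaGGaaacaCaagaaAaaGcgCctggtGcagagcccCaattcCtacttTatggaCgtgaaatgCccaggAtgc
Rpl39l: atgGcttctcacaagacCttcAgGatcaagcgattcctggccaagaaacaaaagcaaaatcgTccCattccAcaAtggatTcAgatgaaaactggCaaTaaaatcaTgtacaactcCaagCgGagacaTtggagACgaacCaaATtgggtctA
Rpl39: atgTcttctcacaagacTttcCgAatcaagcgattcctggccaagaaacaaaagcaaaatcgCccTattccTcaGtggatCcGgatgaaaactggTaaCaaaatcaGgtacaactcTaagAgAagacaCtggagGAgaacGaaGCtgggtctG
Rpl22l1 matched Rpl22 with 74.6% identity over 80.6% of its coding sequence. The other paralogs were low or differed less. Rpl7l1, found in precursors of the large subunit, stood at 14.8 FPKM in LCC, 24.9 FPKM in E-Int29-Hi and 17.4 FPKM in MG, highest in E-Int29-Hi. Rpl3l, a muscle version of Rpl3, was near 0 in every library. The 13 measured skeletal muscle markers summed to 2.12 FPKM in LCC, 1.99 FPKM in E-Int29-Hi and 17.6 FPKM in MG. The highest of them in MG was Tnnt3, at 4.24 FPKM. Rpl3 stood at 85.8 FPKM in LCC, 73.7 FPKM in E-Int29-Hi and 47.0 FPKM in MG. Rpl10l, a testis version of Rpl10, was listed at 0 throughout, and Rpl10 stood at 56.1 FPKM in LCC, 38.8 FPKM in E-Int29-Hi and 29.6 FPKM in MG. Rpl36al, whose name falls outside the rule, stood at 127 FPKM in LCC, 74.7 FPKM in E-Int29-Hi and 63.6 FPKM in MG, above Rpl36a in each library.

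**Figure D4:**
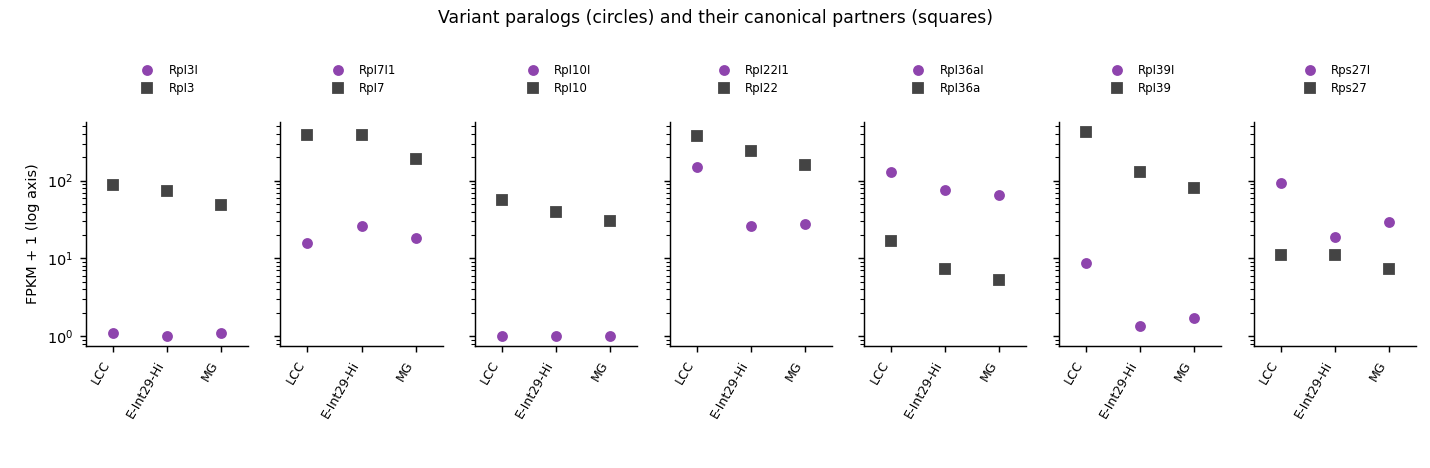
FPKM + 1 on a log axis for 7 pairs of a variant paralog (circle) and its canonical partner (square) in LCC, E-Int29-Hi and MG. Rpl22l1 stands at 149 FPKM in LCC, 24.9 FPKM in E-Int29-Hi and 27.0 FPKM in MG, and Rps27l at 91.7 FPKM in LCC, 17.9 FPKM in E-Int29-Hi and 28.5 FPKM in MG.

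Start regions were searched for motifs known from ribosomal protein genes. Promoter sequences from RefSeq (GRCm38.p6, from 250 bases before to 50 after the start) were matched for 60 of 80 genes sought, 54 of them canonical. A run of at least 10 C or T bases within 30 bases of the start was found in 24 of 54 canonical genes (44.4%), against 12.4% of 17492 protein-coding genes. The letters CCGGAAG, the core bound by ETS factors, were found on either strand of the whole window in 23 (42.6%), against 12.9%. The letters ATGGCGG, the core bound by YY1, were found in 9 (16.7%), against 6.05%. These motifs were searched independently and matches may overlap. Genes with the C and T run had a median change of 0.57 for LCC over E-Int29-Hi, 1.18 for LCC over MG and 0.57 for E-Int29-Hi over MG, and those without it 0.47, 1.13 and 0.60. The sequences cover 30 bases on each side of the start for the 3 paralogs that stood apart, for their partners, and for Rplp2 and Rps6 as genes with the run. Rpl22 and Rps27l have 2 listed starts each, of which the most upstream is shown. Each sequence reads 5′ to 3′ on its gene's strand, and capitals mark the run where there is one.
Rpl22l1 (chr3:28805478-28805537, plus strand): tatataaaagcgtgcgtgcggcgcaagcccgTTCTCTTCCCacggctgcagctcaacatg
Rpl22 (chr4:152324406-152324465, plus strand): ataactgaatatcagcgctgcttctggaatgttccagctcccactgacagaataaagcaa
Rps27l (chr9:66946056-66946115, plus strand): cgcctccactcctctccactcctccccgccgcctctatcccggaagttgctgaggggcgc
Rps27 (chr3:90213619-90213678, minus strand): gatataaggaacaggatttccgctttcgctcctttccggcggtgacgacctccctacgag
Rpl39l (chr16:10170198-10170257, plus strand): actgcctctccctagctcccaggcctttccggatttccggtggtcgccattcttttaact
Rpl39 (chrX:37085193-37085252, minus strand): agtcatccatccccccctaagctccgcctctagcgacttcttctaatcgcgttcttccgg
Rplp2 (chr7:141447621-141447680, plus strand): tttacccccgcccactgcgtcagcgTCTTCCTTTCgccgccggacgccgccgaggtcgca
Rps6 (chr4:86857338-86857397, minus strand): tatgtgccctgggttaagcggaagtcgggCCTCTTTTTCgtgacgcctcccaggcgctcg
Among the paralogs and partners shown, the run was found in Rpl22l1. On either strand of the whole window, CCGGAAG was found in Rps27l, Rpl39l and Rpl39, and in Rpl39l it lies outside the printed bases. These coordinates belong to GRCm38, while the submitters' processing notes name mm9 for the expression values.

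The translation factors around the ribosome had smaller median changes for LCC over MG than the ribosomal proteins. For LCC over E-Int29-Hi the medians lay close to theirs. Of 4 ribosomal components whose names fall outside the rule, LCC stood at least 2-fold higher than MG for 2, Gnb2l1 among them. Gnb2l1, now named Rack1, a scaffold on the small subunit, stood at 929 FPKM in LCC, 636 FPKM in E-Int29-Hi and 362 FPKM in MG. For comparison, LCC stood at least 2-fold higher than E-Int29-Hi for 21.2% of all genes and lower for 14.1%, and higher than MG for 10.9% and lower for 12.8%. Of 11 elongation factors, LCC was at least 2-fold higher than E-Int29-Hi for 3 and than MG for 4, with medians of 0.47 and 0.73. Eef1a1, which delivers transfer RNA, stood at 2889 FPKM in LCC, 1838 FPKM in E-Int29-Hi and 1744 FPKM in MG, and Eef1b2, its exchange factor, at 248 FPKM in LCC, 119 FPKM in E-Int29-Hi and 89.0 FPKM in MG. Of 35 initiation factors, 4 stood at least 2-fold higher and 1 lower in LCC than in E-Int29-Hi, and 2 higher and none lower in LCC than in MG. The medians were 0.47 and 0.43. A list of 18 other genes with oligopyrimidine transcripts shares 4 genes with the elongation list, 5 with the initiation list and Gnb2l1 with the ribosomal components. It gave medians of 0.63 and 0.74, with 4 and 5 genes at least 2-fold higher in LCC. It holds Vim, an intermediate filament of mesenchymal cells, at 1638 FPKM in LCC, 154 FPKM in E-Int29-Hi and 521 FPKM in MG, and fibroblast markers were likewise lowest in E-Int29-Hi, with sums of 1451 FPKM in LCC, 143 FPKM in E-Int29-Hi and 3120 FPKM in MG. Their part in the result was not tested.

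Genes for making ribosomes stood close to the all-gene median. Over 50 ribosome biogenesis genes the median change was 0.24 for LCC over E-Int29-Hi and 0.09 for LCC over MG. Of them 6 stood at least 2-fold higher and 1 lower in LCC than in E-Int29-Hi, and 3 higher and 1 lower in LCC than in MG, against all-gene shares of 21.2% and 14.1% for the first pair and 10.9% and 12.8% for the second. Ncl, a nucleolar protein of ribosomal RNA processing, stood at 96.4 FPKM in LCC, 77.0 FPKM in E-Int29-Hi and 78.7 FPKM in MG. Rrp1b, also nucleolar, was the one that stood 4-fold lower in LCC than in E-Int29-Hi, at 4.79 FPKM in LCC, 27.4 FPKM in E-Int29-Hi and 12.6 FPKM in MG. Over the MYC and mTORC1 list the medians were 0.23 for LCC over E-Int29-Hi and 0.03 for LCC over MG. Myc stood at 165 FPKM in LCC, 83.0 FPKM in E-Int29-Hi and 140.2 FPKM in MG, and Eif4ebp1, the inhibitor of cap-dependent initiation that mTORC1 phosphorylates, at 110.1 FPKM in LCC, 29.5 FPKM in E-Int29-Hi and 53.3 FPKM in MG. Deptor, an inhibitor bound to mTOR, stood at 0.859 FPKM in LCC, 11.6 FPKM in E-Int29-Hi and 3.27 FPKM in MG. The 77 mitochondrial ribosomal proteins, which serve the other ribosome of the cell, had a different pattern. Their median change was 1.07 for LCC over E-Int29-Hi, 0.85 for LCC over MG and -0.24 for E-Int29-Hi over MG. For E-Int29-Hi over MG, 21 stood higher and 56 lower, while 74 of 79 cytosolic ribosomal protein genes stood higher. Over all genes 38.1% stood higher there, with a median change of -0.23, so the mitochondrial set lay close to the transcriptome at large in this comparison.

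**Figure D5:**
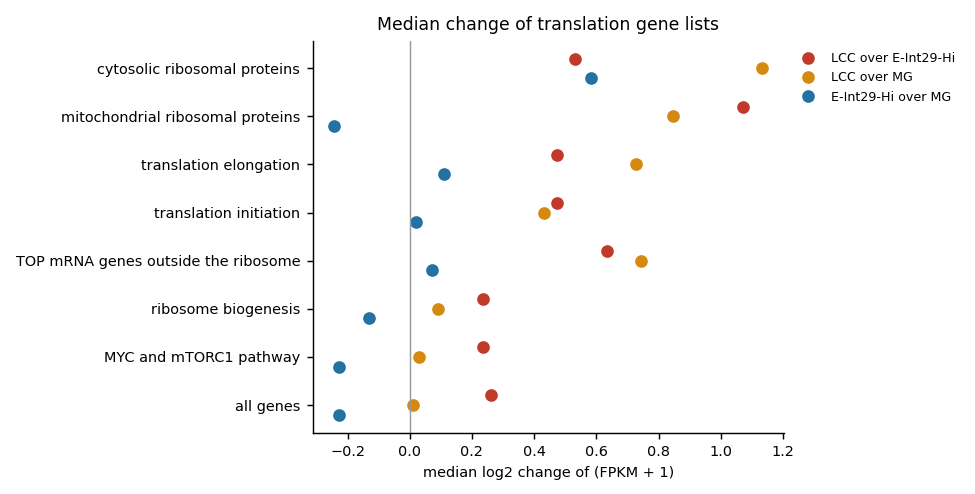
Median log2 change of FPKM + 1 for the ribosomal protein genes and for lists of translation genes in the 3 comparisons, 1 point per list and comparison. The cytosolic ribosomal protein genes stand at 1.13 for LCC over MG, against 0.73 for elongation factors, 0.43 for initiation factors and 0.09 for ribosome biogenesis.

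Genes of the p53 response were examined because free Rpl5 and Rpl11 are known to act through Mdm2, and because Rps27l is a p53 target. Of 12 tested, 5 stood at least 2-fold higher and 1 lower in LCC than in E-Int29-Hi, and 3 higher and none lower in LCC than in MG. Over all genes 21.2% stood 2-fold higher and 14.1% lower in the first of these comparisons, and 10.9% and 12.8% in the second. Bax, which promotes cell death, stood at 86.3 FPKM in LCC, 22.6 FPKM in E-Int29-Hi and 46.5 FPKM in MG, and Eda2r, a p53-regulated receptor, at 8.71 FPKM in LCC, 0.592 FPKM in E-Int29-Hi and 3.74 FPKM in MG. Cdkn1a, the cell cycle inhibitor, stood at 144 FPKM in LCC, 138 FPKM in E-Int29-Hi and 113 FPKM in MG, and Mdm2 at 80.3 FPKM in LCC, 59.1 FPKM in E-Int29-Hi and 45.0 FPKM in MG. Phlda3, a p53-regulated inhibitor of Akt, was highest in E-Int29-Hi, at 34.0 FPKM in LCC, 94.9 FPKM in E-Int29-Hi and 16.1 FPKM in MG.

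Markers of cell types other than mammary epithelium also differed between the libraries, and their part in these results was not tested. The 13 macrophage and monocyte markers summed to 595 FPKM in LCC, 123 FPKM in E-Int29-Hi and 225 FPKM in MG. Of 14 lung epithelium markers, 11 stood at least 2-fold higher in LCC than in E-Int29-Hi, against 21.2% of all genes. Against MG the count was also 11, and 10.9% of all genes stood as far above MG. The 11 markers were not all the same in both comparisons, since Abca3 and Hopx stood highest in MG and Foxj1 in E-Int29-Hi. Scgb3a2, Sftpa1 and Sftpd were among those that passed the filter on low values through LCC alone. In E-Int29-Hi, Scgb3a1, Scgb3a2 and Sftpa1 were listed at 0. Erythroid markers summed to 62.3 FPKM in LCC, 3.45 FPKM in E-Int29-Hi and 50.8 FPKM in MG, with Alas2 and Slc4a1 among those listed at 0 in LCC. Lymphocyte markers summed to 12.1 FPKM in LCC, 3.75 FPKM in E-Int29-Hi and 16.6 FPKM in MG. Endothelial markers summed to 136 FPKM in LCC, 127 FPKM in E-Int29-Hi and 611 FPKM in MG. Adipocyte markers summed to 61.0 FPKM in LCC, 279 FPKM in E-Int29-Hi and 875 FPKM in MG, with Cfd, Lep, Plin1 and Retn listed at 0 in LCC. Nearly all of each sum was Fabp4, at 60.4 FPKM in LCC, 276.4 FPKM in E-Int29-Hi and 845.4 FPKM in MG.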

How the data were processed

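RNA from 3 pooled mouse samples was sequenced after poly-T capture on an Illumina HiSeq, per the labels' protocols. The deposited values are FPKM per gene model, with a status and, per the submitters' processing notes, TopHat 1.4.1, Cufflinks 1.3.0 and the build mm9 were used. The gene annotation was not given in the sources used here. Deposited FPKM were used without further scaling. Depth is unknown, so no interval was made. Models with status OK in all 3 libraries were kept (22188 models, 22077 names, the highest model per name). Changes are log2((FPKM + 1)/(FPKM + 1)), for genes that reach 1 FPKM in either library, counted at 2-fold and 4-fold beside the same counts over all genes. With 1 library per group no test was possible. Near-identical models were found with BLAST 2.17.0 on GENCODE M21 coding sequences (identity of at least 95%, coverage of at least 80%). Matches to Flt3l and Wdr89, models of other named genes, were left out, and -ps models were added by name. Of the 22188 models, 1574 have no M21 transcript and could not be searched. Promoters came from RefSeq. Computations used Python 3.11.15 with pandas 2.3.3, and were tested on simulated data.

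The genes named were those at least 2-fold apart, the 6 highest and 6 lowest changes per comparison, the 8 highest and 8 lowest levels in LCC, the paralog pairs, the genes with roles described, their copies at high levels, and the strongest genes of the other lists. Not every gene that met this rule is printed, and some genes are not reported here. The genes and lists were chosen with earlier results of these data known. Alternatives were other pseudocounts, filters, scalings, statuses and ways of counting copies.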

Additional observations from a re-analysis of the deposited data

How the results depend on the processing

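The median changes kept their direction under every alternative run. Single values were followed for only a fixed part of the ribosomal protein genes named above. None of these followed genes that stood 2-fold apart reversed. Medians are given as LCC over E-Int29-Hi, LCC over MG and E-Int29-Hi over MG. A pseudocount of 0.1 gave 0.54, 1.15 and 0.59, and one of 5 gave 0.48, 1.05 and 0.54. No low-value filter gave 0.52 and 1.12 for the comparisons with LCC, and a filter at 5 FPKM gave 1.14 for LCC over MG and 0.59 for E-Int29-Hi over MG. Median ratio scaling gave 0.26, 1.05 and 0.77, and TPM gave 0.35, 0.77 and 0.40. Adding models named as pseudogenes gave 0.51, 1.16 and 0.60, and adding all copies, an alternative chosen after seeing the data, gave 0.54, 1.19 and 0.63. Genes without copies, likewise, gave 0.48, 1.16 and 0.63, and leaving out the variant paralogs and the model listed as Rpl24 gave 0.59 for E-Int29-Hi over MG.

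Genes at least 2-fold higher in LCC than in E-Int29-Hi numbered 4 with median ratio scaling and 5 among genes without copies, where fewer genes were tested. Those higher in LCC than in MG numbered 18 in TPM and 20 among genes without copies. Those at least 2-fold higher for E-Int29-Hi over MG numbered 2 with a pseudocount of 0.1, 11 with median ratio scaling, 0 in TPM, 2 with copies added and 0 among genes without copies. A single gene was at least 2-fold lower there with a pseudocount of 0.1 and in TPM, 1 in each. The share of the FPKM sum was 4.98% in LCC, 3.92% for E-Int29-Hi and 2.82% for MG in TPM. With every status kept it was 4.65% in LCC, 3.68% for E-Int29-Hi and 2.63% for MG. With pseudogene-named models it was 6.77% in LCC, 5.32% for E-Int29-Hi and 3.79% for MG, and with all copies 10.9% in LCC, 8.47% for E-Int29-Hi and 6.04% for MG. The cause of these shifts was not tested, beyond the models added or left out. Of the values of the followed genes, 555 kept their side of the 2-fold limit, 21 came to lie under it, 7 passed it and 7 small changes switched sign. No paired analysis was possible because each group is 1 pooled library.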

Other observations

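Rpl13, the gene with no value of its own, had a model named as its pseudogene. Rpl13-ps3 stood at 119 FPKM in LCC, 100.1 FPKM in E-Int29-Hi and 56.3 FPKM in MG. It followed the order LCC, E-Int29-Hi, MG of most ribosomal protein genes.

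Coding length and FPKM were positively correlated across ribosomal protein genes. Over the 74 canonical genes, log2 coding length and log2 level gave r = 0.30 in LCC, 0.34 for E-Int29-Hi and 0.35 for MG. Over the 26 canonical genes without copies, the log2 coding length correlated across genes with the log2 level at r = 0.51 in LCC, 0.58 for E-Int29-Hi and 0.59 for MG. Over the 74 genes the coding length correlated with the change at -0.22 for LCC over E-Int29-Hi, -0.17 for LCC over MG and 0.06 for E-Int29-Hi over MG. These are descriptions across genes, which share a library and are not independent replicates.

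Factors that resolve stalled ribosomes stood close to level between the libraries by their median. Over 12 such genes the median change was 0.06 for LCC over E-Int29-Hi, -0.10 for LCC over MG and -0.01 for E-Int29-Hi over MG. Abce1, which splits ribosomes for reuse, stood at 39.5 FPKM in LCC, 37.7 FPKM in E-Int29-Hi and 39.99 FPKM in MG. Edf1, which senses collided ribosomes, stood at 53.6 FPKM in LCC, 26.5 FPKM in E-Int29-Hi and 25.03 FPKM in MG.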
